A study of Mus musculus with 4 samples.

Results

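Leukocyte adhesion genes were followed in the blood of mice treated with naringenin (Nar), a flavonoid, by RNA sequencing. The set holds 9 genes chosen by symbol for their role: the integrin subunits Itgam, Itgal, Itgb2, Itga4 and Itgb1, the selectin ligand Selplg, the hyaluronan receptor Cd44, and the adhesion ligands Icam1 and Pecam1. All 9 have values in all 4 libraries, out of 17823 genes with values. The rule that defines the set names genes by role and uses no measured value, but it was written with earlier results of these data known. C57BL/6 mice, which the study's methods give as about a year old and the labels as adult, were injected through the tail vein for 30 days with Nar (libraries Nar 1 and Nar 3) or with phosphate-buffered saline, PBS, as the control (libraries Ctrl 1 and Ctrl 3). The labels give 2 libraries per group and do not say whether each is 1 mouse or a pool, so p-values measure only the spread between these libraries. Messenger RNA was purified from blood with oligo(dT) beads, and the deposited values are FPKM (fragments mapped to a gene, scaled for transcript length and for the library's mapped fragments), which are comparable between genes per length.

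Integrins are heterodimers of an alpha and a beta chain that hold cells to ligands on other cells and in the matrix. Itgam and Itgal encode the alpha chains that pair with the beta chain of Itgb2 to form Mac-1, abundant on neutrophils and monocytes, and LFA-1, found on most leukocytes. Itga4 and Itgb1 encode the chains of VLA-4, which binds Vcam1 on endothelium. Selplg encodes PSGL-1, the ligand through which leukocytes are caught and roll on P-selectin. Icam1 is a ligand of LFA-1 and Mac-1, and Pecam1 is found on endothelium, platelets and leukocytes and takes part in the passage of cells between endothelial cells.

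On GRCm38, the build in the submitters' processing notes, RefSeq (GRCm38.p6) places Itgal at chr7:127296139-127335137 and Itgam at chr7:128062640-128118491, 728 kb further on. Itgb2 lies at chr10:77530329-77565708, Itga4 at chr2:79255426-79333114, Itgb1 at chr8:128685654-128733579 and Cd44 at chr2:102811141-102901669. Selplg lies at chr5:113817798-113832528, Icam1 at chr9:21015940-21028814 and Pecam1 at chr11:106654213-106715281.

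The RefSeq promoter table holds 5 of the 9 genes (Itga4, Cd44, Itgam, Itgb1 and Icam1), and the 250 bases before the start are shown for 3 of them: Itgam, which differed most between the groups, Itgb1, whose groups overlapped, and Icam1, the endothelial-type ligand of this set. All 3 lie on the plus strand, at chr7:128062390-128062639, chr8:128685404-128685653 and chr9:21015690-21015939. Capitals mark GAGGAA, the core bound by the myeloid factor PU.1, or GGAAATTCC, an NF-kB-type site, each searched on both strands (as TTCCTC and GGAATTTCC in reverse).
Itgam: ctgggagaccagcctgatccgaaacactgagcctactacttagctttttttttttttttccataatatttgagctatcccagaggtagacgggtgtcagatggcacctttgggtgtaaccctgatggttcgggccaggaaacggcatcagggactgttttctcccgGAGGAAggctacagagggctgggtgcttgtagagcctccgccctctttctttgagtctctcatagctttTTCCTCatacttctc
Itgb1: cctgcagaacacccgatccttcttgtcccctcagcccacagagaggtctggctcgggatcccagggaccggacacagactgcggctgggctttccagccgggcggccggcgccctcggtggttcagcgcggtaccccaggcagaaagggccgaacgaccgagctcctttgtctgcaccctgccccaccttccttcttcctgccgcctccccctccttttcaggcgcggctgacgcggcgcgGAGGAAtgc
Icam1: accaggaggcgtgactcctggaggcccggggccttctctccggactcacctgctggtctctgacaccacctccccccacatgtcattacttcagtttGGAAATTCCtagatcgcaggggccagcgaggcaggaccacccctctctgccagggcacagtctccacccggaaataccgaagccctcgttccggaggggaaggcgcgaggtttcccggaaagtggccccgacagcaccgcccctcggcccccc
GAGGAA begins 84 bases before the start of Itgam and, in reverse, 15 bases before it, and it begins 9 bases before the start of Itgb1. Of the genes not shown, Cd44 has GAGGAA at 2 places, 243 and 220 bases before its start, and Itga4 has none. These letters stand in 23.3% of 32817 promoter windows of this length. GGAAATTCC begins 153 bases before the start of Icam1 and stands, in either orientation, in 0.286% of the windows. Only this spelling was searched, so the share of windows with any NF-kB-type site is not given. TATAAA, searched on both strands too, is in 0 of the 5 windows and in 12.4% of all. Letters in a window are a description of the sequence and not of binding in blood.

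The 4 libraries were almost wholly red cell messenger. Haemoglobin genes took from 92.6% to 96.4% of the summed FPKM, and all other genes share the remainder. Over the 5339 genes with a mean of at least 0.5 FPKM the median log2 fold change was -1.07, Nar minus control. It was computed on log2(FPKM + 0.1), a scale on which low genes show less than their full change. Scaling by the median of ratios, which levels the typical gene, shifted that median by 1.01 to -0.06, so each of the 9 genes is given below on both scales. Defining markers of endothelium were near 0, with Cdh5 listed at 0.03 FPKM in each library and 6 endothelial genes summing to between 0.29 and 1.18 FPKM. Platelet genes stood apart in Ctrl 3, where 9 markers summed to 2463 FPKM against 773.7 in Ctrl 1, 653.4 in Nar 1 and 505.5 in Nar 3. In bulk blood, fewer cells of a type and less RNA per cell cannot be told apart.

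Messenger for PSGL-1, for Cd44 and for the alpha chains of Mac-1, LFA-1 and VLA-4 was less abundant in blood after Nar, while Itgb2, Itgb1, Icam1 and Pecam1 did not pass the test. With limma and Benjamini-Hochberg adjustment over the 5339 genes, 5 of 9 genes had an adjusted p-value under 0.05, all 5 lower with Nar. The background is high: 39.6% of all tested genes were called lower and 0.187% higher. In 7 of the 9 genes the Nar libraries were the lowest pair, as in 78.3% of the tested genes, and in 0 of 9 were they the highest pair, as in 1.27%. All 9 log2 fold changes were below 0, against 93.7% of the tested genes, with a median of -1.52 that lay -0.45 from the median of the whole table. Median-of-ratios scaling left 0 of 9 genes called by limma, with 2 at an unadjusted p-value under 0.05, against a background of 0.356% called lower and 0.112% higher. With haemoglobin genes removed, 2 of 9 (Itgam and Selplg) were called lower, against 5.01% of the table lower and 0.263% higher. With the replicate number as a block, 3 of 9 (Itgam, Itga4 and Selplg) were called lower, against 33.8% lower and 0.243% higher. Without Ctrl 1, or without Ctrl 3, 0 of 9 were called (4 and 5 at an unadjusted p-value under 0.05), as were 0 of all tested genes. Without Nar 1, or without Nar 3, Itgam alone was called, where 254 and 213 of the 5339 genes were called lower.

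**Figure D1:**
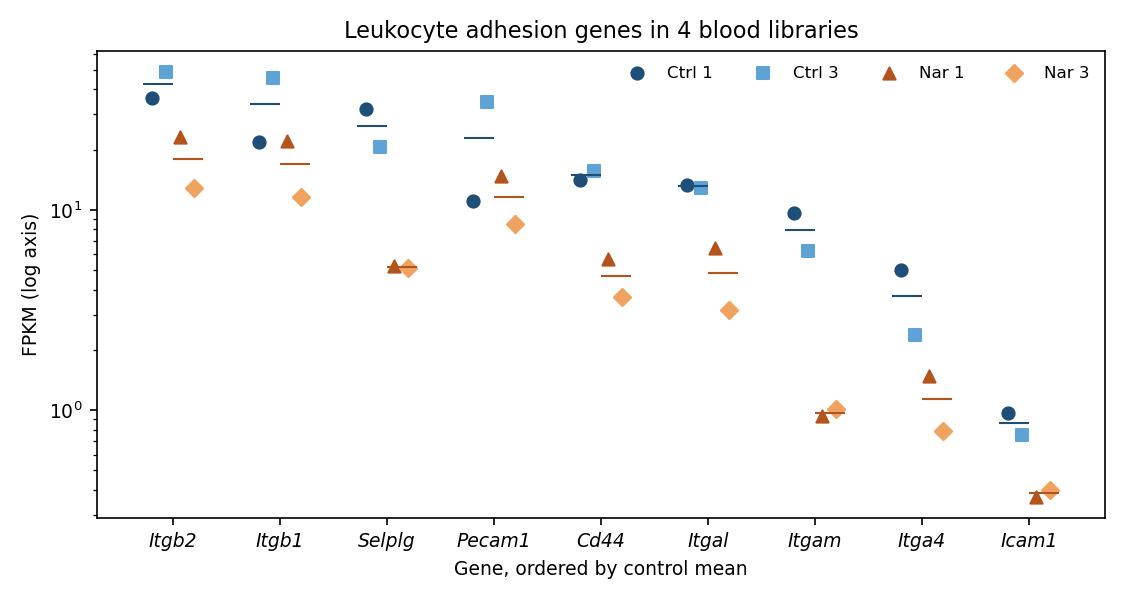
FPKM of the 9 leukocyte adhesion genes in each of the 4 libraries on a log axis, with a symbol per library and a short line at each group mean (n = 2). Both Nar libraries lie below both control libraries except for Itgb1 and Pecam1, where Ctrl 1 falls among the Nar libraries.

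Itgam, the alpha chain of Mac-1, differed most. It was listed at 9.70 and 6.25 FPKM in the controls (Ctrl 1, then Ctrl 3), against 0.93 FPKM in Nar 1 and 1.01 in Nar 3. The Nar libraries were far below both controls, and they differed little from each other. The control mean of 7.98 ± 2.44 FPKM (SD, n = 2) stood against a Nar mean of 0.97 ± 0.057 FPKM (SD, n = 2), 7.38-fold lower on the log2(FPKM + 0.1) scale. The log2 fold change was -2.88 (standard error 0.42, limma adjusted p = 0.00476), and only 1.91% of tested genes had a lower one. After median-of-ratios scaling it was -1.82 (standard error 0.40, limma adjusted p = 0.0979), and with the remaining genes rescaled after removal of haemoglobin genes it was -2.35 (limma adjusted p = 0.00562).

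Itgal, the alpha chain of LFA-1, was listed at 13.37 FPKM (Ctrl 1) and 12.94 FPKM (Ctrl 3), and then 6.49 FPKM (Nar 1) and 3.15 FPKM (Nar 3). The controls were close together and the Nar libraries were not, with Nar 1 at 2.06 times Nar 3. The log2 fold change was -1.52 (standard error 0.51, limma adjusted p = 0.0451), near the threshold, and -0.42 after median-of-ratios scaling (limma adjusted p = 0.83).

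Itgb2, the beta chain shared by Mac-1 and LFA-1, was listed at 36.16 and 48.86 FPKM in the controls (Ctrl 1, then Ctrl 3), against 23.16 FPKM in Nar 1 and 12.92 in Nar 3. It had the highest mean of the set in both groups, and the groups did not overlap. Its log2 fold change was -1.28 (standard error 0.54) and missed the threshold (limma adjusted p = 0.0782). On the median-of-ratios scale it was -0.17 (standard error 0.51). The 3 tested genes whose profile over the 4 libraries lay nearest to that of Itgb2, by Euclidean distance on centred log2 values, were Fbxw11, Mrpl34 and Wdr1, at distances of 0.0393, 0.0496 and 0.0768. Of its own alpha chains, Itgal ranked 448 and Itgam 5029 of the tested genes by that distance, which rests on 4 libraries.

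Itga4, the alpha chain of VLA-4, was listed at 5.02 FPKM (Ctrl 1) and 2.37 FPKM (Ctrl 3), and then 1.48 FPKM (Nar 1) and 0.79 FPKM (Nar 3). The groups did not overlap, although Ctrl 1 was far above Ctrl 3. The log2 fold change was -1.58 (standard error 0.48, limma adjusted p = 0.0341), or -0.54 after median-of-ratios scaling (limma adjusted p = 0.724).

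Its partner Itgb1, the most widely used integrin beta chain, was listed at 21.73 and 45.80 FPKM in the controls (Ctrl 1, then Ctrl 3), against 22.17 FPKM in Nar 1 and 11.57 in Nar 3. Ctrl 1 lay between the Nar libraries and only Ctrl 3 stood above them. The log2 fold change was -0.97 with a standard error of 0.59 (limma adjusted p = 0.179) and became 0.13 after median-of-ratios scaling, so its direction depends on the scale. It was -0.44 without Ctrl 3, -0.51 without Nar 3, -1.51 without Ctrl 1 and -1.44 without Nar 1.

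Selplg, which encodes PSGL-1, had the second largest difference. It was listed at 31.98 FPKM (Ctrl 1) and 20.59 FPKM (Ctrl 3), and then 5.22 FPKM (Nar 1) and 5.10 FPKM (Nar 3). The Nar libraries were nearly equal and both were well below the controls. The means were 26.3 ± 8.05 FPKM (SD, n = 2) and 5.16 ± 0.085 (SD, n = 2), 4.90-fold lower with Nar on the log2(FPKM + 0.1) scale. The log2 fold change was -2.29 (standard error 0.49, limma adjusted p = 0.0154), and 4.66% of tested genes had a lower one. It was -1.19 after median-of-ratios scaling (limma adjusted p = 0.307) and -1.74 with haemoglobin genes removed (limma adjusted p = 0.0307).

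Cd44, the receptor for hyaluronan and one of the ligands of E-selectin, was listed at 14.03 and 15.73 FPKM in the controls (Ctrl 1, then Ctrl 3), against 5.70 FPKM in Nar 1 and 3.69 in Nar 3. The control libraries were close and both lay above the Nar libraries. It was 3.19-fold lower with Nar on the log2(FPKM + 0.1) scale, with a log2 difference of -1.67 (limma's standard error 0.48 and adjusted p = 0.03), or -0.58 after median-of-ratios scaling (limma adjusted p = 0.69).

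Icam1 was the least abundant of the set, at 0.97 FPKM (Ctrl 1) and 0.75 FPKM (Ctrl 3), and then 0.37 FPKM (Nar 1) and 0.40 FPKM (Nar 3). The groups did not overlap, but the log2 fold change of -0.98 (standard error 0.38) missed the threshold (limma adjusted p = 0.0644). It lay 0.10 above the median of the whole table, and on the median-of-ratios scale it was -0.03. With a Nar mean of 0.385 FPKM it passed the filter on low values only through the controls. At these levels a pseudocount matters, and with a pseudocount of 1 the log2 fold change was -0.42.

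Pecam1 was listed at 11.08 and 34.45 FPKM in the controls (Ctrl 1, then Ctrl 3), against 14.75 FPKM in Nar 1 and 8.49 in Nar 3. Ctrl 3 was 3.11 times Ctrl 1, the widest spread between controls in the set, and Ctrl 1 lay between the Nar libraries. The log2 fold change was -0.80 with a standard error of 0.64 (limma adjusted p = 0.292) and turned to 0.30 after median-of-ratios scaling and to 0.0147 without Ctrl 3.

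**Figure D2:**
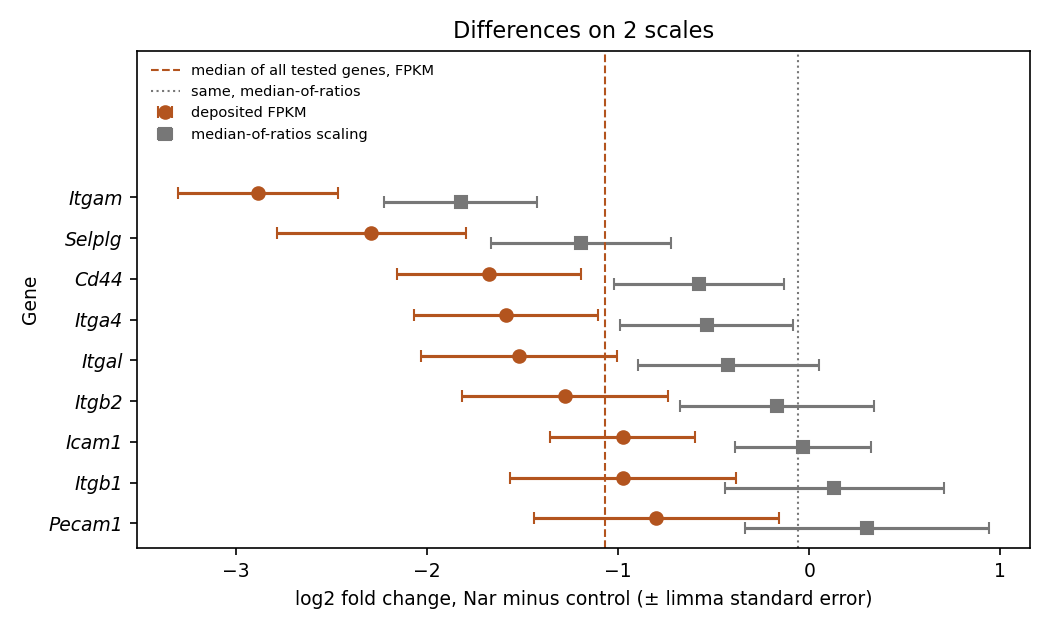
Log2 fold change of each gene, Nar minus control, with limma's standard error, from deposited FPKM (circles) and after median-of-ratios scaling (squares), and the median of all tested genes on each scale as a vertical line. Itgam and Selplg lie farthest below the line on both scales, while Icam1, Itgb1 and Pecam1 lie at or above it.

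Within the set, the genes differed in how the 2 control libraries were ordered. Pecam1, Itgb1, Itgb2 and Cd44 were higher in Ctrl 3 than in Ctrl 1, with ratios of 3.11, 2.11, 1.35 and 1.12. Itgal, Icam1, Itgam, Selplg and Itga4 were lower in Ctrl 3, with ratios from 0.968 for Itgal to 0.472 for Itga4. The 9 platelet markers were all higher in Ctrl 3, by 2.11 to 5.39 times with a median of 3.11, and of these 0 were called between the groups by limma. Neutrophil markers had a median ratio of 0.829. Pecam1 came to between 1.40% and 2.26% of the summed platelet markers in the 4 libraries, and Itgb1 to between 1.86% and 3.39%. The part of platelet RNA in the values of Pecam1 and Itgb1 was not tested.

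Neutrophil markers moved with the result for Itgam. All 10 were called lower with Nar, beside 39.6% of all tested genes. Their log2 fold changes ran from -4.49 to -2.87 with a median of -3.47. They summed to 1612 and 1336 FPKM in controls but to 98.9 and 155 FPKM with Nar. Of the 10, 2 (Camp and Ltf) had Nar means under 0.5 FPKM and passed the filter on low values only through the controls, so their calls support nothing. Itgam came to 0.602% and 0.468% of that sum in controls and 0.941% and 0.65% with Nar, so its share was not lower in either Nar library. Monocyte markers summed to 71.8 and 87.3 FPKM in controls and 27.1 and 9.35 FPKM with Nar. Of these, 3 of 7 were called lower, near the 39.6% of all tested genes. NK cell markers summed to 16.1 and 16.1 FPKM in controls and 7.48 and 3.38 with Nar, and 1 of 6 was called lower, under that share. T cell markers summed to 9.56 and 7.26 against 6.17 and 4.14 FPKM, and B cell markers to 38.0 and 29.4 against 28.7 and 29.6 FPKM. Of the 7 tested T cell and 7 tested B cell markers, 0 were called by limma in either list. On the median-of-ratios scale the neutrophil list had 3 of 10 called lower (Ngp and, with the limit just given, Camp and Ltf), beside 0.356% of all tested genes. Its median there was -2.38, and 0 of the monocyte and 0 of the NK cell markers were called by limma. How far numbers of neutrophils or monocytes account for the levels of the adhesion genes was not tested.

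**Figure D3:**
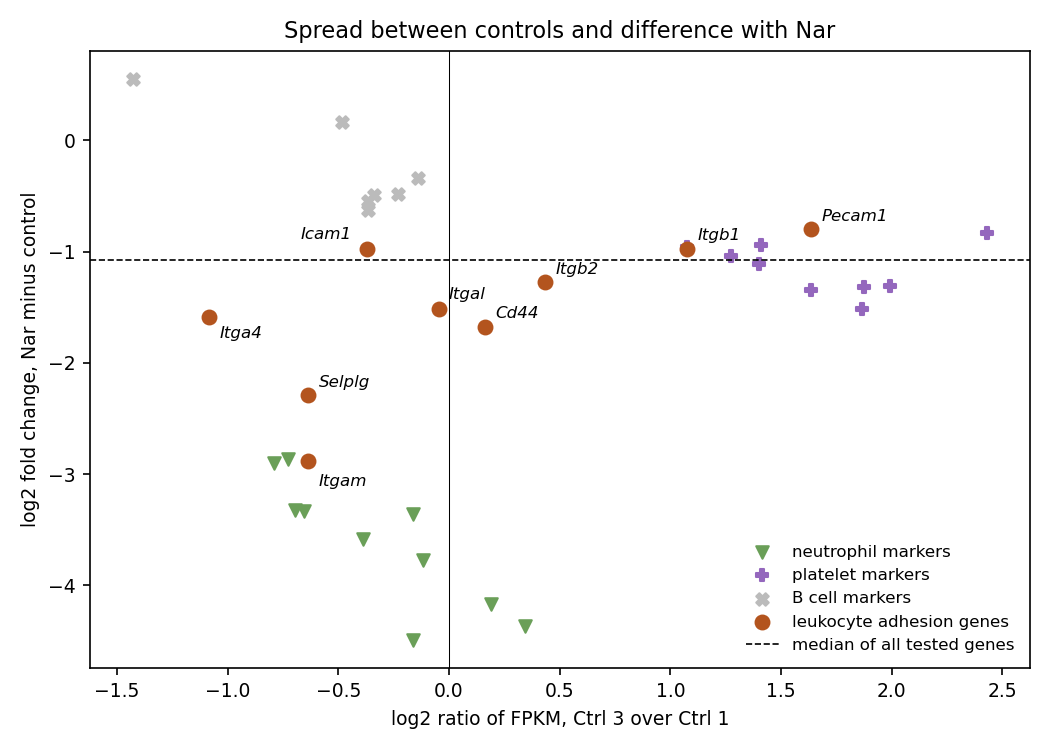
Log2 ratio of Ctrl 3 to Ctrl 1 (horizontal axis) against the log2 fold change, Nar minus control (vertical axis), for the 9 adhesion genes and for neutrophil, platelet and B cell markers, with the all-gene median as a dashed line. Of the lists plotted, Itgam and Selplg lie toward the neutrophil markers and Itgb1 and Pecam1 among the platelet markers. Pan-leukocyte and monocyte markers are not plotted. The pan-leukocyte gene Lcp1 (ratio 0.656, log2 fold change -2.21) would lie beside Selplg (0.644 and -2.29). Since both axes use the control libraries, the points are a description only.

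Ratios of 2 genes within a library do not depend on how that library is scaled. Itgam came to 0.268 of Itgb2 in Ctrl 1 and 0.128 in Ctrl 3, but to 0.0402 in Nar 1 and 0.0782 in Nar 3. The alpha chain of Mac-1 was thus lower relative to the shared beta chain in both Nar libraries, by a mean log2 difference of -1.61. Itgal kept to a narrower range of Itgb2, at 0.37 and 0.265 in controls and 0.28 and 0.244 with Nar, and the groups overlapped. Itgam against Itgal was 0.726 and 0.483 in controls, against 0.143 and 0.321 under Nar, a mean log2 difference of -1.37 without overlap. With 1 library left out, the difference for Itgam ran from -2.14 (without Ctrl 3) to -1.08 (without Ctrl 1) against Itgb2 and from -1.93 (without Nar 3) to -0.801 (without Nar 1) against Itgal. A pseudocount of 1 gave -0.93 and -0.817. In a limma fit of all genes relative to Itgb2, chosen after these values were seen, Itgam had a log2 difference of -1.61 (standard error 0.55) and an adjusted p-value of 0.0893. Of the 8 genes of the set in that fit, Itgam included, 0 were called, with 1 at an unadjusted p-value under 0.05. In that fit 1.12% of the table was called lower and 1.37% higher.

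Ptprc, which encodes CD45 of leukocytes, served as the other reference. It was listed at 18.13 FPKM (Ctrl 1) and 9.29 FPKM (Ctrl 3), and then 4.81 FPKM (Nar 1) and 2.49 FPKM (Nar 3). It was itself called lower, with a log2 fold change of -1.88 (limma adjusted p = 0.0309). That call was lost after median-of-ratios scaling (-0.78, limma adjusted p = 0.604) and with haemoglobin genes removed (limma adjusted p = 0.142). It is 1 of 5 pan-leukocyte markers, and their Ctrl 3 to Ctrl 1 ratios differed, at 0.512 for Ptprc, 0.656 for Lcp1 and 0.646 for Coro1a but 1.81 for Laptm5 and 2.11 for Arhgdib, so the pattern that follows rests on the choice of Ptprc. The median log2 fold change of the 5 was -1.53, beside -1.52 for the adhesion genes, and -0.42 on the median-of-ratios scale, the value of the adhesion genes there. Relative to Ptprc, Ctrl 1 stood apart and Ctrl 3 lay with the Nar libraries for several genes. Itgb2 was 1.99 times Ptprc in Ctrl 1 and 5.26, 4.81 and 5.19 times in Ctrl 3, Nar 1 and Nar 3. Itgb1 was 1.20 times Ptprc in Ctrl 1 and 4.93, 4.61 and 4.65 times in the others, and Pecam1 was 0.611 times in Ctrl 1 and 3.71, 3.07 and 3.41 times. The summed platelet markers followed the same order, at 42.7 times Ptprc in Ctrl 1 and 265, 136 and 203 times in Ctrl 3, Nar 1 and Nar 3.

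Itga4 had the narrowest range relative to Ptprc, at 0.277 and 0.255 in controls and 0.308 and 0.317 with Nar, with both Nar libraries above both controls. Itgam was 0.535 and 0.673 of Ptprc in controls and 0.193 and 0.406 with Nar, the 1 gene of the set that was lower relative to Ptprc in both Nar libraries, by a mean log2 difference of -1.01 that became -0.492 without Nar 1 and -1.52 without Nar 3. Selplg, in contrast, was 1.76 and 2.22 times Ptprc in controls and 1.09 and 2.05 times with Nar, and the groups overlapped. Icam1 was 0.0535 and 0.0807 of Ptprc in controls and 0.0769 and 0.161 with Nar by FPKM, ranges that overlapped, although they did not on the log2(FPKM + 0.1) scale. Of 14 ratios compared on that scale, 3 were lower and 2 higher in both Nar libraries and 9 overlapped. With 2 libraries against 2, the exact permutation test (two-sided) cannot go below 0.33, which those 5 reached, with a Benjamini-Hochberg adjusted p of 0.92 over the 14.

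**Figure D4:**
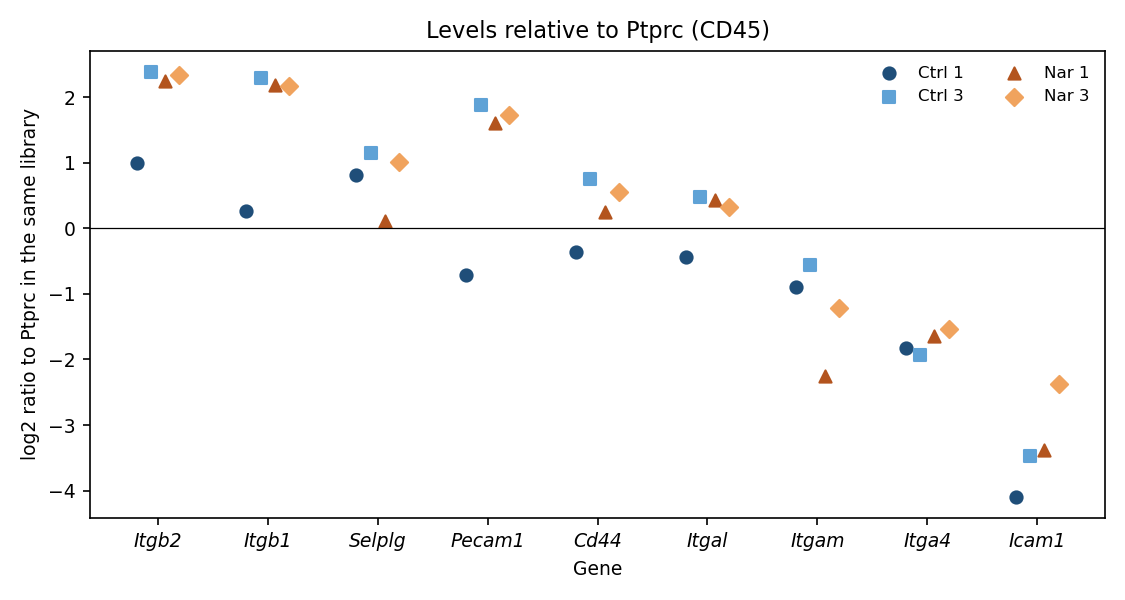
Log2 ratio of each adhesion gene to Ptprc in the same library, log2((gene + 0.1)/(Ptprc + 0.1)), with a symbol per library. For Itgb2, Itgb1 and Pecam1 the Ctrl 1 point lies apart from the other 3, and for Itgam both Nar points lie below both control points.

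By mean FPKM the control order was Itgb2, Itgb1, Selplg, Pecam1, Cd44, Itgal, Itgam, Itga4 and Icam1, with means from 42.5 to 0.86 FPKM. The ranges of neighbours overlapped from Itgb2 down to Cd44, while each step from Cd44 to Icam1 was free of overlap. With Nar the order was Itgb2, Itgb1, Pecam1, Selplg, Itgal, Cd44, Itga4, Itgam and Icam1, with means from 18.0 to 0.385 FPKM. Neighbours there stood apart at 3 steps, between Pecam1 and Selplg, between Cd44 and Itga4, and between Itgam and Icam1.

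Other genes of the adhesion pathway were taken from a list of 68 written by role, of which 66 had values and 47 passed the filter on low values. In all, 12 of the 47 were called lower by limma and 0 higher, with 22 at an unadjusted p-value under 0.05, against the background of 39.6% called lower. Their median log2 fold change was -0.999, beside -1.07 for the whole table. On the median-of-ratios scale 0 were called (6 at an unadjusted p-value under 0.05), with 23 below 0 and 24 above. On that scale the log2 values of several genes named below were above 0, among them Itgb3 (0.37), Itga6 (0.21), Selp (0.68), Spn (0.38), Esam (0.39), Fermt3 (0.23) and Tpst2 (0.29). Cd47, Cd226, Rap1b, Adam10 and Itga2b were above 0 as well, by at most 0.15. The lowest on that scale were Cd177 (-2.51), Adam8 (-2.19), Itgb2l (-2.19), St3gal4 (-1.49) and Pxn (-1.43), with limma adjusted p-values from 0.078 to 0.133. Without Ctrl 1 or without Ctrl 3, 0 of the 47 were called (22 and 16 at an unadjusted p-value under 0.05), and 4 were called without Nar 1 and 3 without Nar 3, fits in which 254 and 213 of the 5339 genes were called lower. Among the 12 were St3gal4 and Msn, which the naming rule covers, and Itgb7, Itgb2l, Cd177, Apbb1ip, Rassf5, Pxn, Sharpin, Gcnt1 and Adam8, named after their values were seen. Of these, 4 (Itgb2l, St3gal4, Gcnt1 and Adam8) had Nar means under 0.5 FPKM and passed the filter on low values only through the controls, where they were high, so they had to differ and their calls support nothing.

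Among 8 tested integrin subunits outside the set, 2 were called lower, beside 39.6% of all tested genes. The most abundant were the platelet fibrinogen receptor chains Itga2b and Itgb3 and the laminin receptor chain Itga6, none of which passed. The control mean of Itga2b was 188 ± 120 FPKM (SD, n = 2) and its Nar mean 78.8 ± 17.9 FPKM (SD, n = 2), with a log2 fold change of -1.11 (limma adjusted p = 0.131). Itgb3 and Itga6 had log2 fold changes of -0.73 and -0.89 (limma adjusted p = 0.351 and 0.24). Itgax, the alpha chain of another Itgb2 integrin, carried by myeloid and dendritic cells, was listed at 1.18, 0.52, 0.55 and 0.16 FPKM in Ctrl 1, Ctrl 3, Nar 1 and Nar 3, with overlap. Itgb2l, a gene similar to Itgb2 between which alignment can split reads, had 1.62 and 0.74 FPKM in controls, against 0.10 and 0.03 FPKM under Nar. Itgb2l passed the filter on low values only through the controls, so its call supports nothing.

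Of the selectins, Selp, the P-selectin of platelets and endothelium, had 2.27 and 3.03 FPKM in controls and 3.34 and 1.17 with Nar, with overlapping groups. Sele, the E-selectin of endothelium, was listed at 0 in 3 of the libraries and at 0.01 FPKM in the other. Spn, the sialomucin CD43, did not pass (log2 fold change -0.68, limma adjusted p = 0.25).

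Beside 39.6% of all tested genes, 1 of 8 tested genes in the list of other adhesion and junction ligands was called lower. It was Cd177, a surface protein of neutrophils, at 10.82 and 4.76 FPKM in controls and 0.50 and 0.56 with Nar (log2 fold change -3.53, limma adjusted p = 0.00427). The most abundant of the list, Cd47, the "do not eat me" signal of blood cells, Cd226 and the junction protein Esam, had log2 fold changes of -0.99, -1.07 and -0.70 and were not called. Vcam1, the endothelial ligand of VLA-4, was listed at 0.01 to 0.04 FPKM.

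Genes that regulate integrin activation or link integrins to actin were called lower in 4 of 16 cases, beside 39.6% of all tested genes. The 4 were the focal adhesion adaptor Pxn, with a log2 fold change of -2.47, and Rassf5, Apbb1ip and Sharpin, with -1.85, -1.68 and -1.23. Rassf5 (RAPL) and Apbb1ip (RIAM) act with Rap1 in integrin activation. The most abundant, the kindlin Fermt3, Ilk and the Rap1 gene Rap1b, had log2 fold changes of -0.88, -1.20 and -0.96 and did not pass. In Ctrl 3 Fermt3 was 2.74 times and Ilk 3.92 times its level in Ctrl 1, within the range of the platelet markers, but Rap1b was 1.33 times. The median ratio of the list was 1.53, with 10 of the 16 genes higher in Ctrl 3.

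Enzymes that build the sugar ligands of selectins were called lower in 2 of 6 tested cases, beside 39.6% of all tested genes. Both called genes, St3gal4 and Gcnt1, had Nar means under 0.5 FPKM. They passed the filter on low values only through the controls, so their calls support nothing. St3gal4, a sialyltransferase for selectin ligands, was listed at 3.30 and 2.34 FPKM in controls, against 0.42 and 0.41 FPKM under Nar. Gcnt1, which makes the core branch on which PSGL-1 carries its ligand, had 1.22 and 1.18 FPKM in controls, against 0.43 and 0.21 FPKM under Nar. The tyrosine sulphotransferase Tpst2 and the galactosyltransferase B4galt1 were not called, with log2 fold changes of -0.77 and -1.13. Fut7 and Fut4, the fucosyltransferases of selectin ligands, were listed at no more than 0.15 FPKM and were not tested.

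Membrane linkers and sheddases were called lower in 2 of 6 cases, beside 39.6% of all tested genes. Msn (moesin), which links CD44 and PSGL-1 to actin, was listed at 19.76 and 19.09 FPKM in controls, against 8.23 and 5.47 FPKM under Nar, and had a log2 fold change of -1.52 (limma adjusted p = 0.04). Adam8, a protease of myeloid cells that can shed PSGL-1, had 5.46 and 3.01 FPKM in controls, against 0.25 and 0.50 FPKM under Nar. With a Nar mean of 0.375 FPKM it passed the filter on low values only through the controls, so its call supports nothing. Ezr and Adam10 were not called, with log2 fold changes of -1.09 and -0.95.

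**Figure D5:**
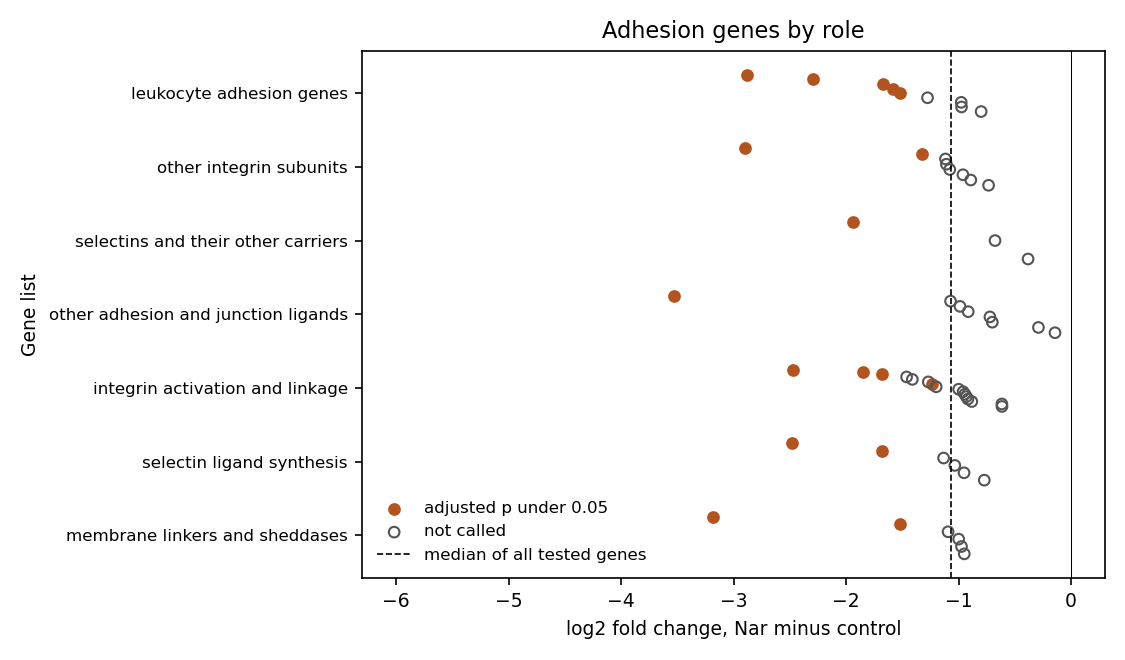
Log2 fold change, Nar minus control, of each tested gene in the set of 9 and in the 6 lists of other adhesion genes. Filled points were called by limma at an adjusted p-value under 0.05, open points were not, and in each list the called genes lie below the dashed median of all tested genes.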

How the data were processed

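The deposited values are the authors' FPKM, 1 per gene and library, given to 2 decimals. Their methods name bowtie-2 as the aligner and DEGseq for differences, while the submitters' processing notes name TopHat2, Cufflinks and GRCm38. Versions are not given in the sources used here. DEGseq needs read numbers, so it was not repeated, and the depth behind the values is unknown. The table lists 23136 genes, 5313 of them with no value.

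Differences were computed on log2(FPKM + 0.1) for 5339 genes with a mean of at least 0.5 FPKM and tested with limma 3.58.1 in R 4.3.3 (lmFit, then eBayes with trend), with Benjamini-Hochberg adjustment over the 5339; a gene was called at an adjusted p under 0.05. Steps were tested on simulated data. Within-library ratios were compared by exact permutation. Genes outside the set were named as the 3 most abundant of each role list, plus Itgax and Ptprc and the 3 genes nearest to Itgb2, and 1 gene the rule covers is not reported here. The remaining called genes, and Sele, Vcam1, Cdh5, Fut4 and Fut7, were named after their values were seen. The members and lists were chosen with earlier results of these data known. The settings tried instead were pseudocounts of 1 and 0.01, all genes with values, median-of-ratios scaling, removal of haemoglobin genes, a replicate block and each library left out. Plots used matplotlib 3.10.9.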

Additional observations from a re-analysis of the deposited data

How the results depend on the processing

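A pseudocount of 1 or 0.01 kept the count of adhesion genes called lower at 5 of 9. It was 0 without the filter on low values (7 at an unadjusted p-value under 0.05, and 0 of all genes called), 0 with median-of-ratios scaling and 2 (Itgam and Selplg) with haemoglobin genes removed. Of the other adhesion genes 0, 0 and 4 were then called lower in place of 12. The set's median log2 fold change of -1.52 became -0.42 with median-of-ratios scaling and -0.97 with haemoglobin genes removed. Relative to Itgb2, a setting chosen after seeing the data, 0 of 8 and 2 of 47 were called and the median was -0.28. Across the fits that each left out 1 library, the calls ran from 0 to 1 and from 0 to 4, and the median from -1.98 to -1.02. In these fits a lone library is assumed to vary like the other group.

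The groups share the numbers 1 and 3, and the labels do not say whether these mark pairs. Same-numbered libraries deviated from their group means with a correlation of -0.153 across genes. With 2 libraries per group this cannot decide whether they are pairs. The main fit did not take them as pairs. With the replicate block 3 of 9 genes were called (Itgam, Itga4 and Selplg), and 10 of the 47 other adhesion genes. With the pairing crossed, chosen after seeing the data, the calls were 7 and 29, where 3211 of the 5339 genes were called lower.

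Direction turned for Itgb1 (0.13) and Pecam1 (0.30) with median-of-ratios scaling, and relative to Itgb2 for Itgb1 (0.30), Icam1 (0.30) and Pecam1 (0.48). With 1 library left out, the log2 fold change of Pecam1 ran from -1.61 to 0.0147, turning without Ctrl 3. Ratios that turned without Ctrl 1 ran from -1.67 to 0.45 for Itga4 to Itgb1, from -0.62 to 0.0172 for Itgb2 to Itgb1 and, against Ptprc, from -0.0977 to 0.81 for Itgal, -0.0955 to 1.29 for Itgb2, -0.113 to 1.92 for Itgb1, -0.36 to 0.76 for Cd44 and -0.22 to 2.37 for Pecam1. Selplg to Ptprc ran from -0.86 to 0.028, turning without Nar 1. What caused these shifts was not tested. Depth is unknown, so the precision of the least abundant gene, Icam1, cannot be given.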
